A study of Glycine max with 2 samples.

Results

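Glyma.14G212600 and Glyma.16G195100 are a pair of nuclear genes of soybean that the study describes as a pentatricopeptide repeat (PPR) superfamily gene and a gene of mitochondrial mRNA modification. They were chosen by name, and both are among the 485 differentially methylated genes (DMGs). The deposited annotation lists each of them for 1 of the 3527 differentially methylated regions (DMRs), 2 in all. For Glyma.16G195100 that link rests on a 5′UTR alone, on another sequence than the one its name gives. Genomic DNA came from pooled flower buds of different sizes at full bloom, with 1 whole-genome bisulfite library of NJCMS5A, the cytoplasmic male sterility (CMS) line, and 1 of NJCMS5B, its maintainer line. The maintainer was the recurrent parent of the backcrosses that gave NJCMS5A, so the lines are meant to share their nuclear genome, and the cytoplasm of NJCMS5A comes from the donor parent NJCMS1A. Bisulfite turns unmethylated cytosines into uracil and leaves methylated ones, so the methylation level of a DMR is the percentage of reads at its cytosines, here named calls, in which cytosine was kept. With 1 library per line no value has a replicate error, and every test below compares the 2 libraries and not the lines.

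PPR proteins are RNA-binding proteins built of tandem repeats of a short degenerate motif. They are encoded in the nucleus, act mostly in mitochondria and chloroplasts, and take part in the editing, cleavage, splicing and stabilization of organelle transcripts. Many of the nuclear genes that restore fertility to CMS plants encode PPR proteins that act on the mitochondrial transcript behind the sterility, and in Arabidopsis the PPR protein RPF1 acts in the processing of a mitochondrial mRNA. Plant DNA is methylated at CG, CHG and CHH sites (H is A, C or T), and the levels below join the 3 contexts.

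The study designed a primer pair for qRT-PCR of each gene. The pairs are shown here under the gene names that the study gives them. Their match to the transcripts was not checked here. The primers are written 5′ to 3′ in lower case, and no part is capitalized.
Glyma.14G212600 forward: cctgcactcaccttcttcaatg
Glyma.14G212600 reverse: ttctcggaatcgttgatggct
Glyma.16G195100 forward: tgggctgtgcaagagtgg
Glyma.16G195100 reverse: agcgcttcatcaaacaagcc
The primers are 18 to 22 bases long. Expression was not analysed here.

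The DMR of Glyma.14G212600 had a higher level in NJCMS5A and that of Glyma.16G195100 a lower one. The first lay on Chr14 from 47778771 to 47780258 (gene models Wm82.a2.v1) and was annotated to the promoter, exon and intron of Glyma.14G212600 and to no other gene. In NJCMS5A, 235 of the 2122 cytosine calls of this DMR were methylated, a level of 11.1% (95% Wilson confidence interval 9.81 to 12.5). In NJCMS5B, only 11 of 2176 calls were methylated, a level of 0.506% (0.283 to 0.903). The gene was therefore almost without methylation over this stretch in the maintainer library. The difference was 10.6 percentage points (95% confidence interval 9.24 to 11.99), and the ratio of NJCMS5A to NJCMS5B was 21.9 (Fisher's exact test on the calls, adjusted p = 1.5e-59). As the DMRs had been called on these libraries, each of them passed this test, 44.2% of them with a higher level in NJCMS5A and 55.8% with a lower one, so passing it says nothing particular about these genes. Intervals cover counting error only, and 1 read can give several calls. Each level is a whole number of calls over the total, so unconverted cytosines were not subtracted, and their part in the 11 methylated calls of NJCMS5B was not tested. With 1 percentage point added to both levels the ratio was 8.02.

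The depth behind these values was similar, at 10.01 calls per cytosine for NJCMS5A against 10.3 for NJCMS5B over 212 cytosines. To count each cytosine once, the methylated calls were divided by the depth and rounded. This left 23 methylated of 212 in NJCMS5A and 1 in NJCMS5B, which are scaled calls and not counted sites. The difference still passed the test (Fisher's exact test, adjusted p = 4.0e-06). So did 82.8% of all DMRs and 163 of the 311 on chromosomes. The DMR spanned 1488 bp, against a median of 1135 bp over all DMRs, and held 14.2 cytosines per 100 bp, against a median of 18.8. Over all DMRs its difference was among the smaller ones, since 3202 of the 3527 had a larger one. No deposited DMR differed by less than 10 percentage points. Most DMRs lay on scaffolds, and among the 311 on chromosomes 195 had a larger difference and the median was 10.9 percentage points. A difference of at least 20 percentage points was found in 33.9% of all DMRs, in 7 of the 311 on chromosomes and in neither of those described here.

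**Figure D1:**
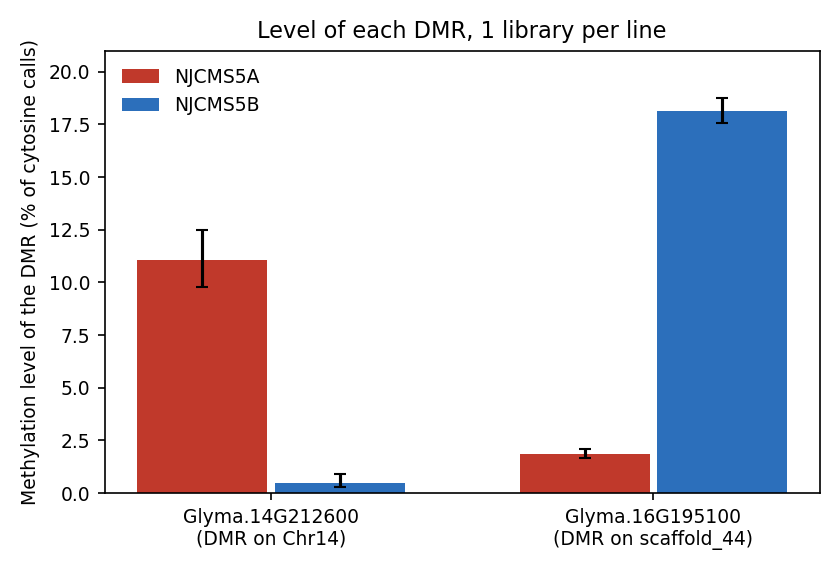
Methylation level (y axis, percent of cytosine calls) of the DMRs of Glyma.14G212600 and Glyma.16G195100 (x axis) in NJCMS5A (red) and NJCMS5B (blue), 1 library each. Bars are levels and error bars are 95% Wilson intervals for counting error; the Chr14 DMR is high in NJCMS5A (11.1% against 0.506%) and the scaffold_44 DMR in NJCMS5B (18.1% against 1.86%).

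The DMR of Glyma.16G195100 did not lie on Chr16, the chromosome for which the gene is named. It lay on the unplaced scaffold_44 from 85447 to 91534 and was annotated to this gene by a 5′UTR alone. In NJCMS5A, 292 of 15728 calls were methylated, a level of 1.86% (95% Wilson confidence interval 1.66 to 2.08). In NJCMS5B, 3061 of 16869 calls were methylated, a level of 18.1% (17.6 to 18.7). Here the low library was thus NJCMS5A, the reverse of the Chr14 DMR. The difference was -16.3 percentage points (-16.9 to -15.7), and the level of NJCMS5B was 9.77 times that of NJCMS5A. The p-value of the Fisher's exact test on these calls was too small to be computed. With each cytosine counted once, the scaled calls were 25 methylated of 1366 in NJCMS5A and 248 in NJCMS5B (Fisher's exact test, adjusted p = 1.1e-49).

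This DMR was one of the longest of the data set. It spanned 6088 bp, and only 15 of the 3527 DMRs were longer and only 10 held more cytosines. Depth was again similar, at 11.5 calls per cytosine for NJCMS5A against 12.3 for NJCMS5B. Cytosines were denser than in the Chr14 DMR, with 22.4 per 100 bp. The size of the difference was close to the middle of all DMRs, for which the median was 16.7 percentage points.

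The DMR of scaffold_44 was shared by 5 gene models, a number reached in only 4 of the 600 DMRs with an annotated gene and exceeded in none. Glyma.U038600 was annotated by its promoter, 5′UTR, exon and intron, and its name is close to those of the other genes of the scaffold. Glyma.16G195100, Glyma.17G240200, Glyma.18G199200 and Glyma.U018500 were each annotated by a 5′UTR alone. Of these, Glyma.U018500 also had a DMR over its exon, intron and 3′UTR on scaffold_21, from 3143965 to 3146861, where NJCMS5A had 20.2% (95% Wilson confidence interval 19.3 to 21.2) against 2.29% (1.98 to 2.65) for NJCMS5B. The direction at its gene body was therefore opposite to that of the scaffold_44 DMR listed for its 5′UTR.

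Over the whole annotation, 84 of the 739 pairs of DMR and gene (11.4%) joined a DMR to a gene named for another sequence. All 84 pairs rested on a UTR alone, whereas among the other 655 pairs this was so in 1, that of Glyma.U018500 with scaffold_44. The 5′UTR was involved in 58 of the 84 pairs, at 37 DMRs, and each of the 37 DMRs was also annotated to the 5′UTR of a gene that was unplaced or named for the sequence of the DMR. Of the 13 DMGs named for Chr16, 8 had a DMR on Chr16 and 5, with Glyma.16G195100 among them, had DMRs on scaffolds only. The 12 DMRs of Chr16 therefore gave no level for Glyma.16G195100. The level of the gene at its own locus was not analysed here, and the DMR of scaffold_44 is described below as a region of that scaffold. For Glyma.14G212600 no such question arose, as its DMR lay on Chr14.

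The gene ontology (GO) annotations of the 2 genes also differed. Glyma.14G212600 was not listed under any of the 1242 terms of the GO table, which annotated 334 DMGs against 38033 background genes. Glyma.16G195100 was listed under 135 terms, 123 of biological process and 12 of molecular function. None of these terms named mitochondria, RNA or ATPase activity. Among them, 17 named GTP, Rab or Ras. The terms with the fewest background genes, 83 each, were regulation of Rab GTPase activity, Rab protein signal transduction and its regulation, which concern small GTPases of vesicle traffic. Glyma.16G195100 was the only DMG of these 3 terms, and of 49 of its 135 terms in all. It shared 0 terms with Glyma.U038600, the gene with its exon in the same DMR, which was listed under 3 terms.

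On Chr14, 15 DMRs were called, 8 with a lower and 7 with a higher level in NJCMS5A. The DMR of Glyma.14G212600 was the 14th in order along the chromosome. Its nearest neighbour began 42.6 kb further on, from 47822878 to 47825845, over the promoter, exon and intron of Glyma.14G213200, which the study annotates as glutamine synthetase, an enzyme that fixes ammonium. This DMR changed in the same direction, with 15.4% (95% Wilson confidence interval 14.7 to 16.2) for NJCMS5A against 3.65% (3.24 to 4.11) for NJCMS5B over 686 cytosines. These were the last DMRs of the chromosome. On the other side, the nearest DMR was 867 kb away and had no annotated gene. It was lower in NJCMS5A, at 17.3% (12.1 to 24.2) against 39.3% (31.6 to 47.6), but from only 25 cytosines, and it did not pass the test with each cytosine counted once (Fisher's exact test, adjusted p = 0.129). The next one, 1204 kb from the DMR of Glyma.14G212600 and also without a gene, had 6.86% (4.13 to 11.2) against 17.2% (12.9 to 22.5) over 35 cytosines. It did not pass with each cytosine counted once either.

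The Chr14 DMRs differed in the weight of their evidence. Only 6 of the 15 passed with each cytosine counted once, and the DMRs of Glyma.14G212600 and Glyma.14G213200 were 2 of them. The other annotated DMRs of the chromosome were lower in NJCMS5A. The promoter DMR of Glyma.14G073000, a proteasome alpha subunit, had 5.68% against 16.2% in NJCMS5B, and that of Glyma.14G100000 had 9.26% against 19.8%. Glyma.14G212600 had the only DMR of Chr14 with a level under 1% in a library. On all 20 chromosomes, 25 of 311 DMRs had such a level, 19 in NJCMS5A and 6 in NJCMS5B. Unconverted cytosines were not subtracted here either, and the study reports a larger share of them in NJCMS5B. Of the 311 DMRs, 218 had a lower level in NJCMS5A and 93 a higher one.

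**Figure D2:**
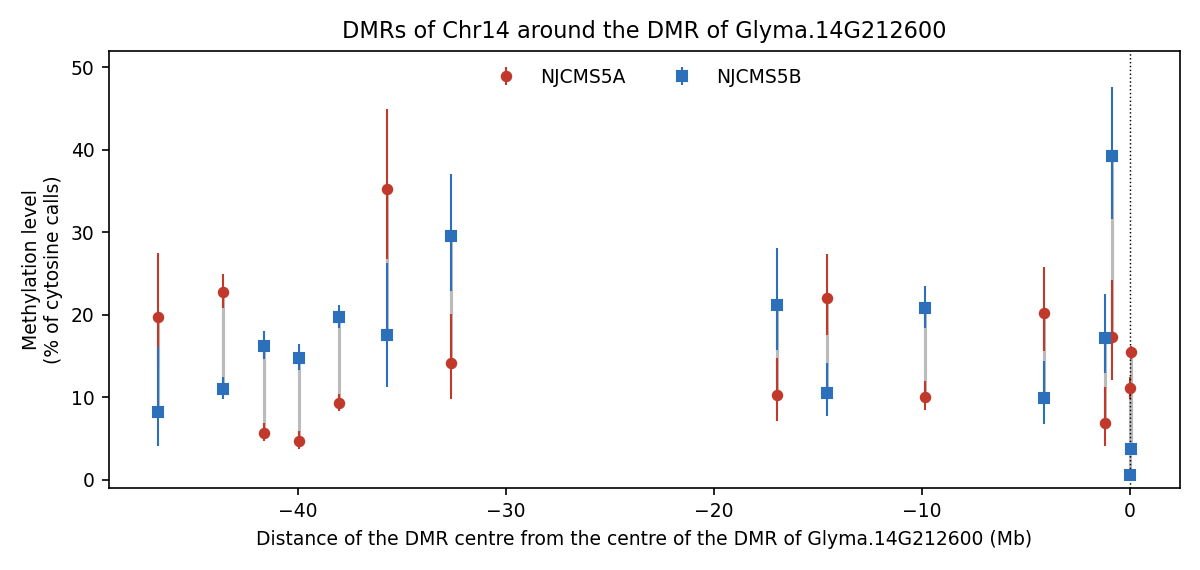
Methylation level (y axis, percent of cytosine calls) of the 15 DMRs of Chr14 in NJCMS5A (red circles) and NJCMS5B (blue squares), by the distance in Mb of each DMR from that of Glyma.14G212600 (dotted line); error bars are 95% Wilson intervals and grey lines join the libraries. At the right end, the DMRs of Glyma.14G212600 and Glyma.14G213200 lie lowest in NJCMS5B, at 0.506% and 3.65%.

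Scaffold_44 was densely covered by DMRs. From the first to the last, over positions 12766 to 169476, 29 DMRs took up 35.9% of the length, while the 15 DMRs of Chr14 took up 0.0298%. The share covered on other scaffolds was not analysed here. Of the 29 DMRs of scaffold_44, 15 had a lower level in NJCMS5A and 14 a higher one. With each cytosine counted once 26 of them passed, as did 2757 of the 3216 DMRs on all scaffolds. The region annotated to Glyma.16G195100 was the longest of the 29. It held the first place in a run of 5 DMRs with a lower level in NJCMS5A, up to position 117433. Within this run the levels of NJCMS5A ranged from 0.282 to 17.9% and those of NJCMS5B from 10.9 to 36.9%. The neighbour before it, 5.31 kb away and without an annotated gene, had the opposite direction, with 11.6% (95% Wilson confidence interval 10.6 to 12.8) for NJCMS5A against 0.585% (0.375 to 0.912).

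The other near DMRs had a lower level in NJCMS5A. The next one before, 11.4 kb away in the genes Glyma.U038400 and Glyma.U038500, had 0 methylated of 314 calls in NJCMS5A, which allows a level of up to 0.955% when 3 calls are taken as the limit and of up to 1.21% by the Wilson interval, and 27 of 201 in NJCMS5B, a level of 13.4% (9.40 to 18.8). It held only 31 cytosines and did not pass with each cytosine counted once (Fisher's exact test, adjusted p = 0.128). The next one after, 7.60 kb away in the promoter of Glyma.U038800, had 3.93% (3.54 to 4.38) for NJCMS5A against 21.1% (20.2 to 22.1). A further one, 14.8 kb away and without a gene, had 1.59% (1.38 to 1.84) against 14.8% (14.1 to 15.5).

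Along the scaffold the direction changed between successive DMRs in 12 of 28 steps, and on Chr14, with far longer steps, in 8 of 14. Both sequences held nearly equal numbers of DMRs of each direction. Whether the order departs from a random one was not tested. In 1 of the changes on scaffold_44 the DMRs were only 2 bp apart. There the level went from 13.7% in NJCMS5A and 0.721% in NJCMS5B (137637 to 139636) to 0.367% and 15.7% (139639 to 142036). In another they were 5 bp apart, at the end of the run that begins with the DMR of Glyma.16G195100. Taken over all 29 DMRs, with 56260 bp covered, the methylated share of the calls was 8.95% in NJCMS5A and 9.995% in NJCMS5B. Without the DMR of Glyma.16G195100 it was 9.80% and 8.94%. These are sums over regions called for their difference and not levels of the scaffold.

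A level under 1% in one of the libraries was found in 18 of the 29 DMRs of scaffold_44 (62.1%), 9 times in NJCMS5A and 9 times in NJCMS5B. Over all DMRs it was found in 361 of 3527 (10.2%). Unconverted cytosines, of which the study reports a larger share in NJCMS5B, were not subtracted from these levels. The limit of 1% was chosen after the values were seen, and the count depended on it and on depth. It was 7 of 29 for levels under 0.5%, and 9 of 19 under 1% among the DMRs with a depth of at least 10 in each library. The DMR of Glyma.16G195100, with 1.86% in NJCMS5A, was outside it, and that of Glyma.14G212600, with 0.506% in NJCMS5B, was inside it. In both regions one library was therefore near the bottom of the scale, and among all DMRs the lower of the levels was smaller in only 5.22% for Glyma.14G212600 and in 13.0% for Glyma.16G195100.

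**Figure D3:**
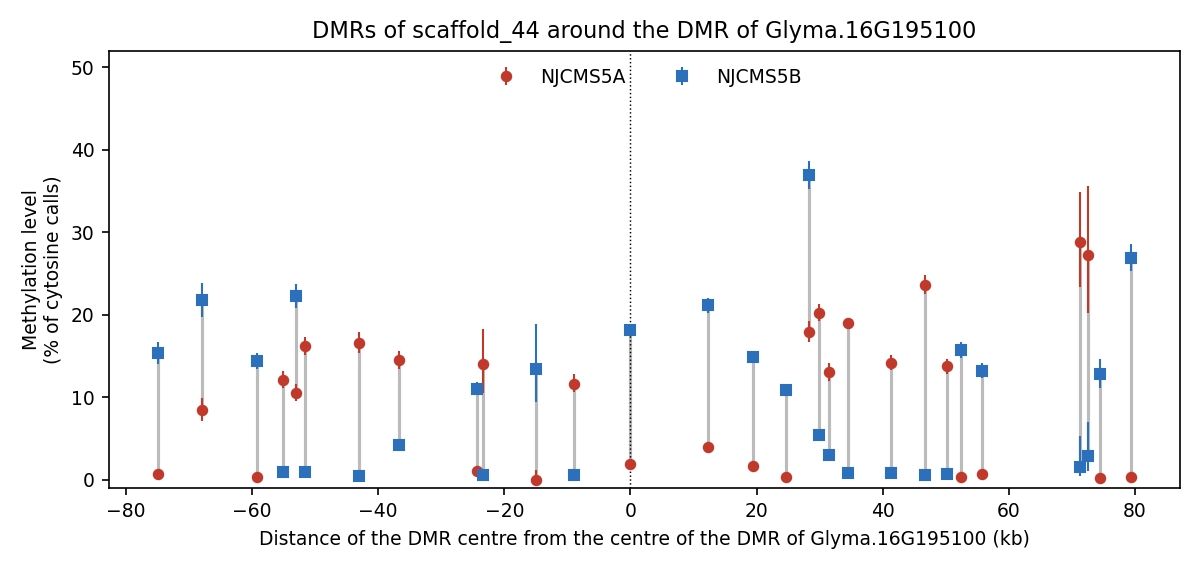
Methylation level (y axis, percent of cytosine calls) of the 29 DMRs of scaffold_44 in NJCMS5A (red circles) and NJCMS5B (blue squares), by the distance in kb of each DMR from that annotated to Glyma.16G195100 (dotted line); error bars are 95% Wilson intervals and grey lines join the libraries. In 18 DMRs one library lies under 1%, 9 times NJCMS5A and 9 times NJCMS5B, and the direction turns in 12 of 28 steps.

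**Figure D4:**
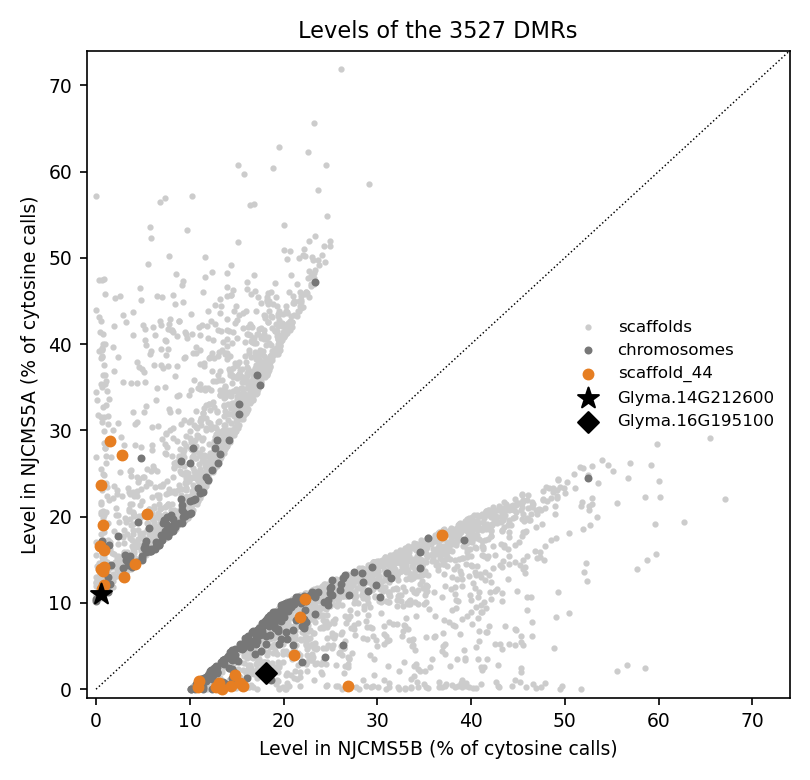
Level in NJCMS5A (y axis) against level in NJCMS5B (x axis), both in percent of cytosine calls, for the 3527 DMRs on scaffolds (light grey) and chromosomes (dark grey), with those of scaffold_44 in orange and the DMRs of the 2 genes in black. Both black points lie close to an axis, Glyma.14G212600 at 0.506% in NJCMS5B and Glyma.16G195100 at 1.86% in NJCMS5A, and no point lies on the dotted line of equal levels because only called DMRs are shown.

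To set the 2 genes beside DMGs of related function, 3 lists were taken from the names of the GO terms. Neither gene was in any of them. The mitochondrial list, from 16 terms that name mitochondria, held 3 DMGs, 2 with a higher level in NJCMS5A and 1 with DMRs of both directions. The median difference of its 4 pairs of DMR and gene was 10.9 percentage points and that of all 739 pairs -10.7. As no DMR differed by less than 10 percentage points, such a median shows which direction was the more frequent and is no measure of size. Over all pairs, 281 of 485 genes were only lower, 88 only higher and 116 both. All list members lay in DMRs that had been called, so these counts give directions and not calls.

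Within the mitochondrial list, Glyma.U045300, listed under the mitochondrial ATP synthase complex, differed most. Over its promoter, 5′UTR, exon and intron, on scaffold_99, NJCMS5A had 25.5% (95% Wilson confidence interval 24.7 to 26.4) against 5.43% (4.93 to 5.99) for NJCMS5B. Glyma.U021000, listed under the translocase of the mitochondrial outer membrane, which imports proteins, had 0.304% against 10.6% over its promoter, 5′UTR, exon and intron. A further DMR of its promoter had 14.1% against 3.06%, in the opposite direction. Glyma.11G163900 had 20.1% in NJCMS5A and 9.44% in NJCMS5B in an intron.

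The RNA list, from 5 terms of RNA modification and processing, held 6 DMGs, 5 of them only lower in NJCMS5A and 1 with both directions. Glyma.U039500, listed under RNA modification, had the largest difference of the list, with 0.804% in NJCMS5A and 36.6% in NJCMS5B on scaffold_471, over its promoter, 5′UTR, exon and intron. The promoter DMR of Glyma.06G202200 had 4.10% against 14.4%, and that of Glyma.08G241400 had 8.57% against 18.6%. Glyma.18G186900, annotated by the study as an AAA-type ATPase, had 2.74% against 12.8% over its promoter and exon. Glyma.12G086300 had 4.15% against 17.5%, at a DMR of scaffold_21 listed for its 5′UTR alone, so its name is also that of another sequence. The gene with both directions, Glyma.U038300, lay on scaffold_44 itself, 20.6 kb before the DMR of Glyma.16G195100. Its first DMR had 0.987% against 11.02% over 373 cytosines, and 203 bp further on its second DMR had 13.96% against 0.502% over 46 cytosines.

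The ATPase list, from 5 terms of ATPase activity, held 9 DMGs, 5 only lower in NJCMS5A, 1 only higher and 3 with both directions. Glyma.06G202200 and Glyma.18G186900 were in the RNA list too. Glyma.06G248800, described by the study as an ABC-2 type transporter, had 8.38% in NJCMS5A and 19.5% in NJCMS5B. Glyma.U008800 had 0.507% against 14.7%, and its neighbour on scaffold_208, Glyma.U008900, had 20.3% against 0.703% in the promoter. Glyma.14G114400 had 7.77% against 31.2% and is named for Chr14, but its DMR lay on scaffold_21 and was listed for a 5′UTR alone. Glyma.18G079700 was in the same position. Its DMRs, both on scaffold_21, had 17.6% against 4.69% where listed for its 3′UTR and 2.87% against 13.5% where listed for its 5′UTR. Glyma.U026700 had a DMR of each direction, with 4.67% against 15.1% and 13.9% against 0.249%. Glyma.U026800, which shares these 2 DMRs in its promoter, had differences from -18.9 to 13.7 percentage points. The median differences of the RNA and ATPase lists were -10.04 and -10.3 percentage points, and they too show only the more frequent direction.

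**Figure D5:**
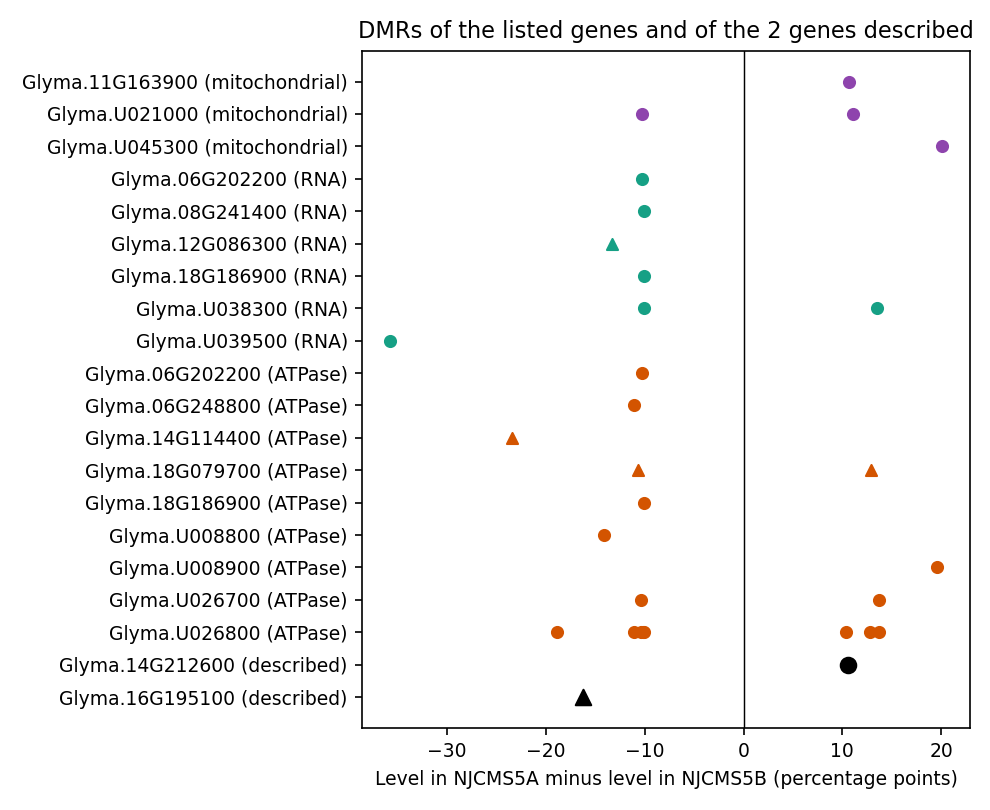
Level in NJCMS5A minus level in NJCMS5B (x axis, percentage points) of each DMR of the genes of the mitochondrial (purple), RNA (green) and ATPase (orange) lists and of the 2 genes described (black), 1 row per gene. Triangles are DMRs on another sequence than the gene's name gives; Glyma.14G212600 lies at 10.6 and Glyma.16G195100 at -16.3, with a triangle.

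None of the regions that the study sequenced from bisulfite clones lay in either DMR, so these levels have no second measurement here. Levels by sequence context were not analysed here. Whether the DMR of scaffold_44 tells of the methylation of Glyma.16G195100 was not tested.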

How the data were processed

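Whole-genome bisulfite libraries of NJCMS5A and NJCMS5B, 1 each, were used. The authors used Bismark 0.12.5 for alignment to the soybean reference genome, kept unique alignments, and ran swDMR (window 1000 bp, step 100 bp, Fisher test, FDR of at most 0.05) to find DMRs. The deposited level of a DMR is a fraction, the methylated share of its cytosine calls, and the deposited coverage is the mean number of calls per cytosine, with no scaling of one library to the other. By the study's definition, a DMR was annotated to each gene that it overlapped in an exon, an intron, a UTR or the 2 kb upstream (promoter). For the 84 pairs whose gene is named for another sequence than that of the DMR, such an overlap was not checked here. Deposited columns of fold changes, differences and p-values, and the KEGG table, were not used.

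Methylated calls were obtained by multiplying each level by its coverage and by the cytosines of the DMR, and were whole to within 0.001 calls in each DMR. Methylated and unmethylated calls were tested by Fisher's exact test (two-sided), and p-values were adjusted over all 3527 DMRs by the Benjamini-Hochberg method. Intervals are 95% Wilson intervals, and those of differences were formed from them. The median depth was 11.3 in NJCMS5A and 10.7 in NJCMS5B. Alternatives were each cytosine counted once (calls scaled down by the depth), a depth of at least 10 and a difference of at least 20 percentage points. Others were offsets of 1 percentage point, adjustment within chromosomes or scaffolds, and genes named for the sequence of the DMR. Named genes were the 2 genes, those sharing their DMRs, those of the 2 nearest DMRs on either side, and all genes of the 3 GO lists. Other genes named for Chr14 or Chr16 were picked with their values known. The genes and lists were chosen with earlier results of these data known. The test was tested on simulated data. Versions were scipy 1.17.1 and numpy 2.4.6 for the tests, pandas 2.3.3 for tables, matplotlib 3.10.9 for plots, under Python 3.11.15.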

Additional observations from a re-analysis of the deposited data

How the results depend on the processing

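The differences of both DMRs kept their direction and passed the test with each cytosine counted once, with 1 percentage point taken off and with adjustment within chromosomes or scaffolds. With 1 percentage point added to both levels, the ratio of NJCMS5A to NJCMS5B was 8.02 in place of 21.9 for Glyma.14G212600 and 0.149 in place of 0.102 for Glyma.16G195100. Where both libraries had a depth of 10 or more, 1642 DMRs were left, all called, in place of 3527, and those with a lower level in NJCMS5A numbered 3 of 5 in place of 8 of 15 on Chr14 and 9 of 19 in place of 15 of 29 on scaffold_44. With a difference of at least 20 percentage points they numbered 1 of 1 and 1 of 4, and the genes that were only lower numbered 1 of 1 in the RNA list and 1 of 1 in the ATPase list, in place of 5 of 6 and 5 of 9. The counts at this depth or difference hold fewer DMRs by construction. As added after the data were seen, levels under 0.5% and 2% were found in 7 and 21 DMRs of scaffold_44 in place of 18 under 1%, and with a depth of at least 10 the number under 1% was 9 of 19. No paired analysis was possible because each line had 1 library.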

Other observations

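Other genes named for Chr14 or Chr16 were likewise joined to scaffolds by a UTR alone, and they were chosen after their values were seen. Glyma.14G106900 had 3 such DMRs on scaffold_164. The DMR from 13908 to 15583, listed for its 5′UTR, had 25.8% in NJCMS5A and 12.3% in NJCMS5B. That from 15604 to 16182, listed for the same 5′UTR, had 0.837% and 12.6%, in the opposite direction. The DMR listed for its 3′UTR had 3.69% and 23.2%. Whether these levels of the scaffold tell of the gene was not tested. Glyma.16G011800 shared with Glyma.14G114400 the DMR of scaffold_21 from 2823885 to 2826480, with 7.77% and 31.2%. The DMR listed for the 3′UTR of Glyma.16G011800, on the same scaffold from 2810487 to 2812880, had 18.6% and 6.14%, in the opposite direction. The remaining genes of this kind were Glyma.16G104900 (24.9% in NJCMS5A, 10.6% in NJCMS5B, on scaffold_23), Glyma.16G157500 (1.39% and 21.8%, on scaffold_344) and Glyma.16G210400 (0.433% and 10.9%, on scaffold_32).

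On Chr16 itself, 7 of the 12 DMRs had a lower level in NJCMS5A and 5 a higher one. The longest DMR of a gene, from 26320056 to 26325552, was shared by Glyma.16G117900, Glyma.16G118000 and Glyma.16G118100. Its level was 19.2% in NJCMS5A and 7.13% in NJCMS5B over 1480 cytosines. Among those with a lower level in NJCMS5A, Glyma.16G065800 had 4.42% against 17.6%, and the DMR shared by Glyma.16G104600 and Glyma.16G104700 had 7.93% against 19.7%, over 27 and 23 cytosines. Neither of these DMRs passed the test with each cytosine counted once.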
